A study of Mus musculus with 8 samples.

Results

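The Wnt ligands, their receptors and co-receptors, the secreted Wnt antagonists and the R-spondin agonists were followed in RNA-seq of C3H10T1/2 cells, together with nuclear factors and a feedback target of the pathway. The members were every gene of the deposited table named *Wnt*, *Fzd*, *Sfrp*, *Dkk* or *Rspo* with a number, and *Lrp5*, *Lrp6*, *Axin2*, *Lef1*, *Tcf7* and *Wif1*. They came to 46 of 18605 genes. C3H10T1/2 is a mouse mesenchymal stem cell line from a C3H embryo, and 4 groups of 2 libraries each were sequenced. NC cells were the control, named a non-target control in the study's results and normal cells in its RNA-seq methods. KD-Nap1l2 cells carried an shRNA against *Nap1l2*, a histone chaperone gene, delivered by lentivirus. NC-7day and KD-Nap1l2-7day cells were the same kinds of cells after 7 days of osteogenic induction, in a medium that the study's methods describe as containing dexamethasone, ascorbic acid and β-glycerophosphate. All 4 groups were grown in serum-containing medium. Whether the NC cells carried a viral construct is not in the labels, and a further control group was not analysed here. No label says that the 2 libraries of a group came from separate cultures, so p-values measure the spread between these libraries, which may be technical.

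Wnt proteins are lipid-modified secreted ligands that bind Frizzled receptors. With the co-receptors LRP5 and LRP6 they stop the destruction of β-catenin, which then enters the nucleus and acts with TCF/LEF factors on target genes such as *Axin2*. Secreted Frizzled-related proteins bind the ligands, Dickkopf proteins bind the co-receptors, and R-spondins keep Frizzled receptors at the surface. The pathway is known as a promoter of bone formation, while a second branch led by Wnt5a signals without β-catenin.

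Library totals ran from 17420284 to 19427359 estimated counts, and the log2 CPM values of the 2 libraries of a group correlated at 0.975 to 0.990 across genes. CPM are counts scaled to library size, here by TMM. *Nap1l2* itself was at 3 and 3 counts in NC, 2 and 7 in KD-Nap1l2, 15 and 5 in NC-7day and 7 and 13 in KD-Nap1l2-7day. Counts this low did not allow the knockdown to be checked in these libraries, and the groups are named by their labels. The study itself reports the knockdown in C3H10T1/2 cells by western blot and qPCR. Of 14 mesenchymal markers, 12 were above 1 CPM in every library, and their summed level was 12521 to 30428 CPM. Summed epithelial markers (1.73 to 8.67 CPM), endothelial markers (0.578 to 2.64 CPM) and haematopoietic markers (12.5 to 29.6 CPM) were low. Summed osteoblast markers were at 1646 to 1831 CPM before induction. At day 7 they were at 5412 and 2091 CPM in NC-7day and 4549 and 4378 CPM in KD-Nap1l2-7day. NC-7day replicate 2 thus lay close to the libraries before induction. Of these markers, *Spp1* was at 1537 to 5316 CPM and *Runx2* at 53.5 to 91.5 CPM, while *Dmp1* and *Phex* reached at most 30.5 and 21.5 CPM. In any library *Bglap* reached at most 22.5 counts, *Alpl* 10, *Sp7* 5.16 and *Ibsp* 2. Summed adipocyte markers were at 61.1 to 116 CPM before induction and 160 to 213 CPM at day 7, and chondrocyte markers at 262 to 480 CPM over all libraries. The summed level of 14 cell cycle genes was 1303 to 1843 CPM before induction, 791 and 1537 CPM in NC-7day, and 928 and 963 CPM in KD-Nap1l2-7day.

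Of the 46 members, 26 held enough counts to be tested among 13470 genes. They were 7 of 18 Wnt genes, 7 of 10 Frizzled genes, 2 of 4 *Sfrp* genes, 2 of 4 *Dkk* genes, 3 of 4 *Rspo* genes, and *Lrp5*, *Lrp6*, *Axin2*, *Lef1* and *Tcf7*. The other 20 never exceeded 22 counts, a value that *Wnt11* had in NC replicate 1, and 12 of them never exceeded 3 counts. *Wnt1*, *Wnt3*, *Wnt3a*, *Wnt7a* and *Wnt8b*, ligands known for the β-catenin branch, were among the 12. A count of 0 still allows up to 3 counts in a library, for counting error alone. *Dkk3*, *Rspo1* and *Wnt6* reached the filter's level of 0.549 CPM in 0 libraries at day 7, so they entered the test through libraries taken before induction. For *Rspo1* these were the 2 NC libraries alone, so that it had to differ in the comparison with KD-Nap1l2 too. At least 10 counts in every library were held by 17 members.

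**Figure D1:**
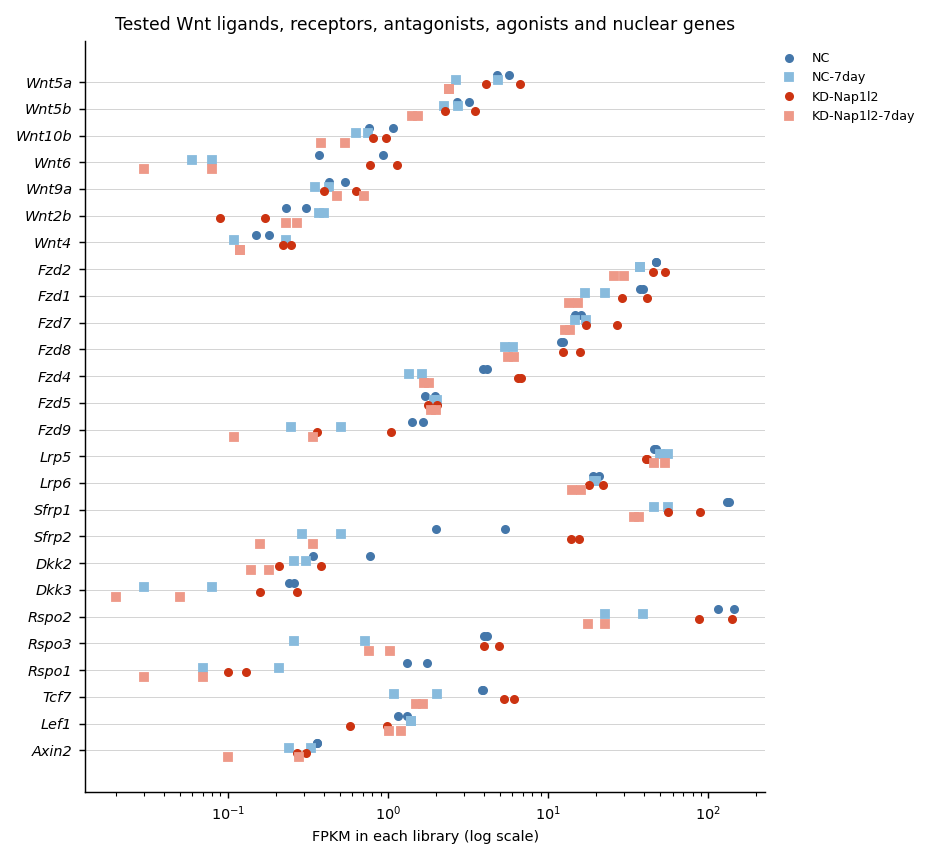
FPKM of the 26 tested members in each of the 8 libraries, on a log scale, with circles before induction and squares at day 7 (blue, NC; red, KD-Nap1l2). *Sfrp1* and *Rspo2* reach above 100 FPKM before induction, and *Dkk3*, *Rspo1* and *Wnt6* lie under 0.3 FPKM at day 7.

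Each family was dominated by few genes. FPKM values are scaled to gene length and library size, so that levels of different genes can be compared. In NC cells, the highest members were *Sfrp1* at 133 ± 3.44 FPKM (SD, n = 2) and *Rspo2* at 131 ± 21.5 FPKM, which did not differ beyond their spread. *Fzd2* (47.1 ± 0.17 FPKM) and *Lrp5* (46.6 ± 0.672 FPKM) followed at like levels, and then *Fzd1* (38.5 ± 1.04 FPKM), *Lrp6* (20.0 ± 1.21 FPKM), *Fzd7* (15.4 ± 1.02 FPKM) and *Fzd8* (12.2 ± 0.233 FPKM). The highest ligand, *Wnt5a*, was at 5.25 ± 0.629 FPKM. At day 7 the order had changed, with *Lrp5* first (52.8 ± 4.31 FPKM in NC-7day), *Sfrp1* second (51.1 ± 7.34 FPKM) and *Rspo2* at rank 4 (30.8 ± 11.6 FPKM). *Lrp5* and *Sfrp1* did not differ beyond their spread there, and *Rspo2* was below *Fzd2* (37.7 ± 0.148 FPKM) by less than its own SD.

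The summed FPKM of each family was lower at day 7. The 18 Wnt genes summed to 12.7 and 9.76 FPKM in NC and to 7.26 and 9.04 FPKM in NC-7day, and to 13.1 and 9.31 FPKM in KD-Nap1l2 and 5.41 and 5.61 FPKM in KD-Nap1l2-7day. The 10 Frizzled genes summed to 121 ± 1.85 FPKM in NC, 83.2 ± 5.23 in NC-7day, 130 ± 11.3 in KD-Nap1l2 and 65.5 ± 4.02 in KD-Nap1l2-7day. The R-spondins summed to 136 ± 21.9 FPKM in NC and 31.5 ± 12 in NC-7day, of which *Rspo2* made up 94.4% to 98.6% in every library. For each of these families, the libraries before and after induction did not overlap in either the NC or the KD-Nap1l2 cells. *Sfrp1* made up 96.0% or more of the *Sfrp* sum in 6 of 8 libraries, but 84.9% and 80.1% in the KD-Nap1l2 libraries, where *Sfrp2* was higher.

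**Figure D2:**
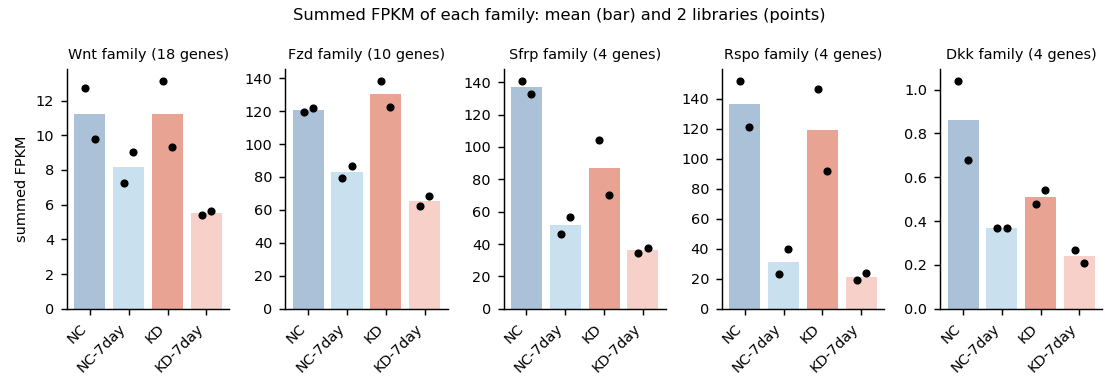
Summed FPKM of the Wnt, Fzd, Sfrp, Rspo and Dkk genes in the 4 groups (bars, means; points, the 2 libraries of a group; KD stands for KD-Nap1l2). R-spondins go from 136 FPKM in NC to 31.5 FPKM in NC-7day, and Dickkopf genes sum to at most 1.04 FPKM in any library.

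The first comparison asked what differed after 7 days of osteogenic induction. No group here was kept for 7 days without induction, so the medium and the time in culture cannot be told apart. In NC cells, 10 of the 26 tested members fell and 0 rose, with edgeR's quasi-likelihood test and Benjamini-Hochberg adjusted p-values under 0.05. Over all genes tested, 3.38% fell and 4.83% rose. The 10 were *Wnt6*, *Fzd1*, *Fzd4*, *Fzd8*, *Sfrp1*, *Sfrp2*, *Rspo1*, *Rspo2*, *Rspo3* and *Tcf7*. Among them, *Wnt6* and *Rspo1* entered the test only through libraries taken before induction, where they were high. DESeq2 called 11 lower and 0 higher, against 5.11% and 6.44% of all genes. At an unadjusted p under 0.05, 13 members were lower and 0 higher, against 11.6% and 12.9%. The libraries did not overlap for 17 lower and 3 higher members, against 28.3% and 29.4%. The median log2 fold change of the tested members was -0.74, against -0.0035 over all genes. *Dkk3* entered the test in the same way as *Wnt6* and *Rspo1*. The 13, the 17 and this median include these genes, so they are given as a description. In KD-Nap1l2 cells, 12 members fell and 0 rose, where 7.36% of all genes fell and 6.84% rose, with a median of -1.02 against -0.0070. DESeq2 called 14 lower and 0 higher here, against 9.45% and 8.23% of all genes. At an unadjusted p under 0.05, 17 members were lower and 0 higher, against 16.1% and 15.3%, and the libraries did not overlap for 20 lower and 3 higher members, against 30.6% and 30.8%. The called genes were 9 of the same genes, without *Rspo1*, and *Wnt5a*, *Fzd2* and *Dkk3*. Here *Wnt6* and *Dkk3* entered only through libraries taken before induction. The unadjusted count, the count without overlap and the median include them and are given as a description. The 9 shared genes were 90% of the first list and 75% of the second. In bulk RNA, fewer cells of a kind and less RNA per cell cannot be told apart. Cell cycle genes moved as well, with a median log2 fold change of -0.24 in NC cells and -0.96 in KD-Nap1l2 cells, and 0 and 3 of 14 called lower. Their part in these results was not tested.

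Of the 17 members with at least 10 counts in every library, 7 fell in NC cells and 10 in KD-Nap1l2 cells, where 3.19% and 7.66% of the genes with that depth fell. Leaving out NC replicate 1 left *Fzd4* alone of the 10 calls in NC cells, and over all genes the calls then dropped from 1106 to 118. Leaving out NC-7day replicate 1 left 6, without *Fzd1*, *Sfrp2*, *Tcf7* and *Wnt6*. Leaving out NC replicate 2 removed *Fzd1* and *Tcf7*, NC-7day replicate 2 removed *Wnt6*, and either KD-Nap1l2-7day library removed *Tcf7* and *Wnt6*. In KD-Nap1l2 cells, *Fzd4*, *Fzd8*, *Rspo2* and *Sfrp2* were left without KD-Nap1l2-7day replicate 1, and these with *Fzd1* and *Fzd2* without replicate 2. No called member's estimate turned direction in these fits, in which the lone library of a group was taken to vary like the others. Over all genes, calls were also fewer in each of the fits named here, so the losses are not shown to be particular to the members.

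**Figure D3:**
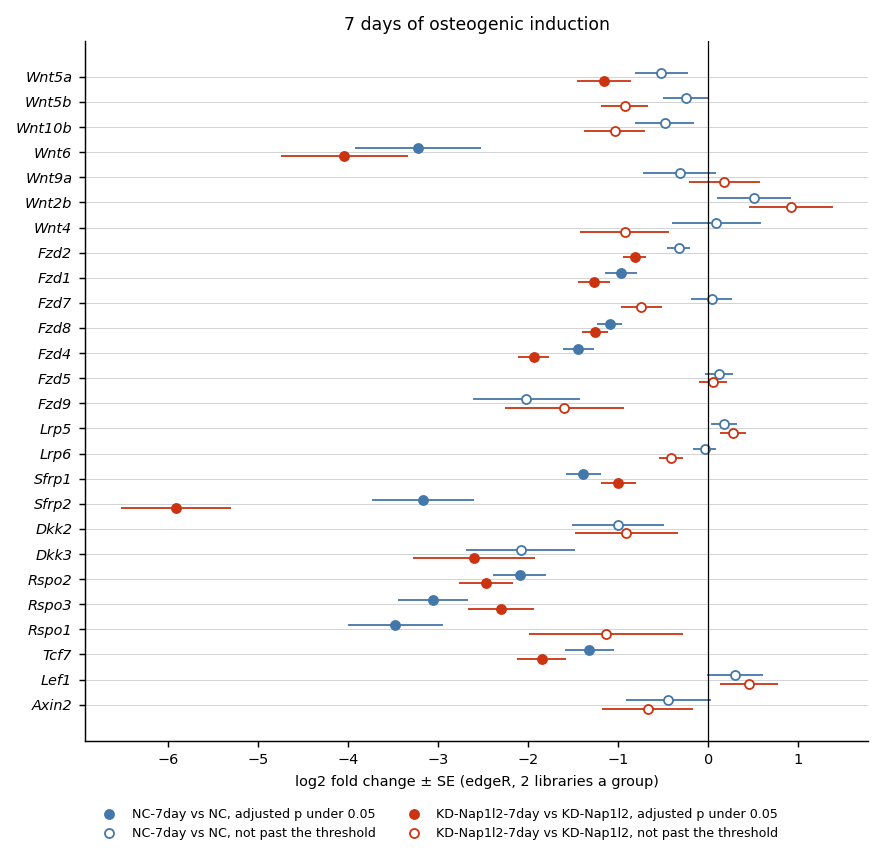
Log2 fold change ± SE from before induction to day 7 for the 26 tested members in NC cells (blue) and KD-Nap1l2 cells (red), with filled points for adjusted p-values under 0.05. All filled points lie left of 0, and *Sfrp2* in KD-Nap1l2 cells is farthest left at -5.91.

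Among the agonists, *Rspo2* carried the most reads. It was at 9369 and 7706 counts in NC, 1363 and 2485 in NC-7day, 8608 and 5545 in KD-Nap1l2, and 1104 and 1388 in KD-Nap1l2-7day. Every library at day 7 was below every library taken before induction. The log2 fold change was -2.10 ± 0.29 (SE) in NC cells (adjusted p = 0.00733) and -2.47 ± 0.30 in KD-Nap1l2 cells (adjusted p = 0.00313), a 4.28-fold and a 5.55-fold fall. Of 5 listed transcripts of *Rspo2*, 1 held 79.2% to 87.1% of its counts in each library, before and after induction. *Rspo2* lies on chromosome 15 at 43020788 to 43171594 (GRCm38.p6, protein coding).

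*Rspo3*, a second R-spondin, was at 188 and 186 counts in NC and 11 and 32 in NC-7day, and at 211 and 176 in KD-Nap1l2 and 45 and 32 in KD-Nap1l2-7day. It fell 8.32-fold in NC cells (log2 fold change -3.06 ± 0.39, adjusted p = 0.00519) and 4.95-fold in KD-Nap1l2 cells (-2.31 ± 0.37, adjusted p = 0.00825), with no overlap in either. Without NC-7day replicate 2 the *Rspo3* estimate in NC cells was -3.92 and that of *Rspo1* -4.51. *Rspo1* behaved differently, because it was detected mainly in NC. It was at 60 and 47 counts in NC, 2 and 7 in NC-7day, 4 and 3 in KD-Nap1l2, and 1 and 2 in KD-Nap1l2-7day. In NC cells it fell with a log2 fold change of -3.48 ± 0.53 (adjusted p = 0.00935), and the ratio of summed counts was 11.3 (exact 95% counting interval 5.72 to 25.3). *Rspo1* passed the low-count filter through the NC libraries alone, so these values are given as a description. In KD-Nap1l2 cells all 4 libraries lay between 1 and 4 counts, so no fold was taken. *Rspo4* never exceeded 2 counts.

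**Figure D4:**
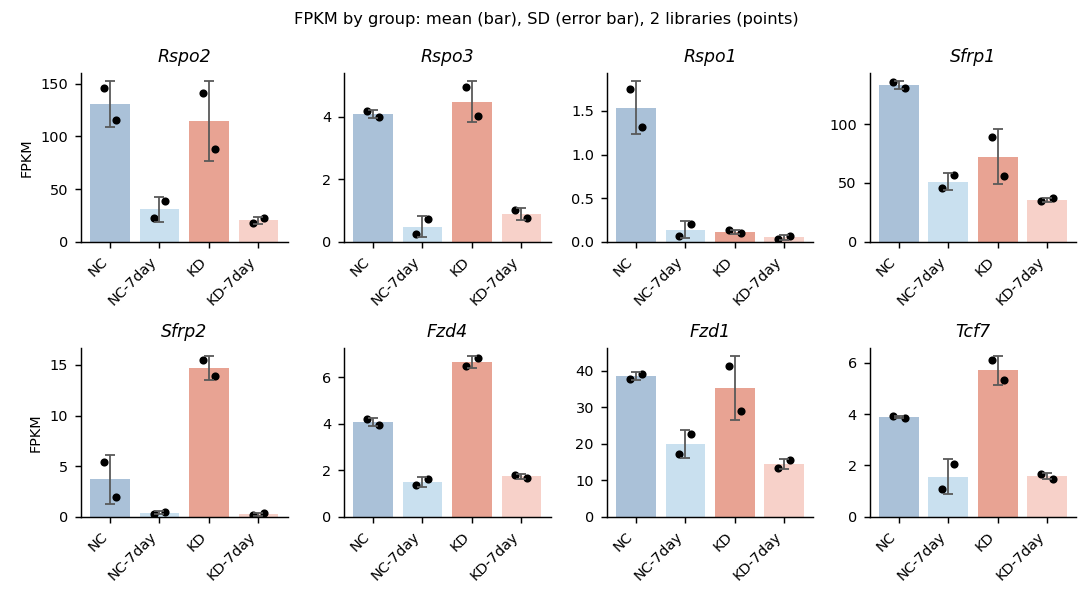
FPKM of 8 members in the 4 groups (bars, mean; error bars, SD; points, the 2 libraries; KD stands for KD-Nap1l2). For *Rspo2*, *Rspo3*, *Sfrp2*, *Fzd4*, *Fzd1* and *Tcf7* both day 7 groups lie below both groups before induction, while *Rspo1* stands out in NC and *Sfrp2* in KD-Nap1l2.

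Among the antagonists, *Sfrp1* was the most abundant. It was at 11170 and 11177 counts in NC, 3529 and 4616 in NC-7day, 6959 and 4536 in KD-Nap1l2, and 2759 and 2882 in KD-Nap1l2-7day. The fall was 2.61-fold in NC cells (log2 fold change -1.39 ± 0.19, adjusted p = 0.00700) and close to 2-fold in KD-Nap1l2 cells (adjusted p = 0.0154), without overlap within either kind of cell. In NC cells the call was lost without NC replicate 1 (adjusted p = 0.0631 with edgeR), and in KD-Nap1l2 cells without either KD-Nap1l2-7day library or where a fold change of at least 2 was asked for.

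*Sfrp2*, a close relative of *Sfrp1*, had the largest estimated ratio of day 0 to day 7 levels among the called members, in KD-Nap1l2 cells. It was at 199 and 73 counts in NC, 10 and 19 in NC-7day, 552 and 503 in KD-Nap1l2, and 5 and 12 in KD-Nap1l2-7day. The day 7 libraries of both kinds lay below the others. It fell 8.97-fold in NC cells (log2 fold change -3.17 ± 0.57, adjusted p = 0.0167) and 60.2-fold in KD-Nap1l2 cells (-5.91 ± 0.62, adjusted p = 0.00178). The size of the second fall rests on 5 and 12 counts at day 7. Over 16 alternatives the log2 fold change ran from -3.74 to -1.65 in NC cells and from -6.70 to -3.65 in KD-Nap1l2 cells. In NC cells *Sfrp2* was at -2.22 without NC replicate 1 (adjusted p = 0.0779 with edgeR), and in KD-Nap1l2 cells at -6.70 without KD-Nap1l2-7day replicate 2. *Dkk3*, a divergent member of the Dickkopf family, was at 15 and 17 counts in NC and 2 and 5 in NC-7day, and at 16 and 10 in KD-Nap1l2 and 1 and 3 in KD-Nap1l2-7day. *Dkk3* passed the low-count filter only through libraries taken before induction, so its values are given as a description. Its fall passed the test in KD-Nap1l2 cells alone (adjusted p = 0.0410), where the ratio of summed counts was 6.41 (exact 95% counting interval 2.22 to 25.3). It did not pass with DESeq2 (adjusted p = 0.105) or with the replicate block (adjusted p = 0.0569). *Dkk3* also lost the call without NC replicate 1, NC replicate 2 or any KD-Nap1l2 or KD-Nap1l2-7day library, and its log2 fold change was -3.56 without KD-Nap1l2-7day replicate 2 against -2.60 with all libraries. In NC cells it was -2.08 ± 0.60 (adjusted p = 0.0765). *Dkk2*, a co-receptor antagonist, was at 55 and 25 counts in NC and at 9 to 26 counts elsewhere and was not called. *Dkk1* stayed below 3 counts and *Wif1* at 3 or fewer, and *Dkk4*, *Sfrp4* and *Sfrp5* at 5 or fewer.

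The receptors were led by *Fzd2* and *Fzd1*. *Fzd1* was at 3122 and 3367 counts in NC, 1318 and 1851 in NC-7day, 3255 and 2343 in KD-Nap1l2, and 1076 and 1206 in KD-Nap1l2-7day. It fell in both kinds of cells (log2 fold change -0.97 ± 0.18, adjusted p = 0.0178, and -1.27 ± 0.18, adjusted p = 0.00526), with no overlap. *Fzd4*, known as the receptor of norrin and of several Wnts, was at 291 and 284 counts in NC, 88 and 113 in NC-7day, 427 and 464 in KD-Nap1l2, and 121 and 109 in KD-Nap1l2-7day. It fell 2.72-fold in NC cells (-1.44 ± 0.17, adjusted p = 0.00406) and 3.83-fold in KD-Nap1l2 cells (-1.94 ± 0.17, adjusted p = 0.000940). *Fzd4* was the only member called in both kinds of cells in each of the 17 alternative analyses. *Fzd8* was at 778 and 786 counts in NC and 354 and 338 in NC-7day, and at 955 and 767 in KD-Nap1l2 and 372 and 336 in KD-Nap1l2-7day. Its day 7 libraries were between 336 and 372 counts in both kinds of cells, and it fell 2.14-fold (adjusted p = 0.00547) and 2.39-fold (adjusted p = 0.00232).

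*Fzd2* was at 3231 and 3338 counts in NC and 2403 and 2549 in NC-7day, and at 3523 and 3010 in KD-Nap1l2 and 1723 and 1917 in KD-Nap1l2-7day. The groups did not overlap in either kind of cell. The call was made in KD-Nap1l2 cells (log2 fold change -0.82 ± 0.13, adjusted p = 0.00773) and not in NC cells (-0.33 ± 0.13, adjusted p = 0.160), and the difference between these responses did not pass the test (-0.49 ± 0.18, adjusted p = 0.680). *Fzd7*, a further abundant receptor, was at 1337 and 1524 counts in NC, 1245 and 1549 in NC-7day, 1490 and 2393 in KD-Nap1l2, and 1132 and 1169 in KD-Nap1l2-7day. It overlapped in NC cells and did not pass in KD-Nap1l2 cells (-0.74 ± 0.23, adjusted p = 0.0656 with edgeR and 0.0176 with DESeq2). *Fzd5* was level, at 220 to 264 counts in all 8 libraries. *Fzd9* was at 56 and 68 counts in NC and 9 and 20 in NC-7day (-2.02 ± 0.60, adjusted p = 0.0809 with edgeR and 0.0458 with DESeq2). In KD-Nap1l2 cells *Fzd9* went from 39 and 14 counts to 13 and 4 (-1.60 ± 0.66, adjusted p = 0.143).

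The co-receptors were not called. *Lrp5* was at 4498 and 4773 counts in NC and 5073 and 4827 in NC-7day, and at 3792 and 3982 in KD-Nap1l2 and 5067 and 4208 in KD-Nap1l2-7day, with adjusted p-values of 0.489 and 0.237. Its libraries at day 7 were above those before induction in both kinds of cells. *Lrp6* was at 3684 and 3509 counts in NC and 3242 and 3386 in NC-7day, and at 3687 and 3084 in KD-Nap1l2 and 2671 and 2329 in KD-Nap1l2-7day, with adjusted p-values of 0.883 and 0.0703 (0.0391 with DESeq2 for the second).

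Among the ligands, *Wnt5a* led in every library, with 36.6% to 54.3% of the summed Wnt FPKM. It was at 522 and 453 counts in NC, 216 and 438 in NC-7day, 578 and 366 in KD-Nap1l2, and 213 and 201 in KD-Nap1l2-7day. In NC cells 1 day 7 library lay close to the earlier ones, and the fall did not pass (log2 fold change -0.52 ± 0.29, adjusted p = 0.319). In KD-Nap1l2 cells it passed narrowly (-1.16 ± 0.30, adjusted p = 0.0405), and the call was lost in 8 of 17 alternatives. These were limma at both offsets, the replicate block (adjusted p = 0.061), and the fits without either NC library, without KD-Nap1l2 replicate 1 or without either KD-Nap1l2-7day library. *Wnt6* was at 36 and 15 counts in NC and 2 and 3 in NC-7day, and at 42 and 29 in KD-Nap1l2 and 1 and 3 in KD-Nap1l2-7day. Both falls passed (adjusted p = 0.0309 and adjusted p = 0.0114), and the ratios of summed counts were 9.67 (exact 95% counting interval 3.89 to 31.1) and 17.5 (6.54 to 66.0). *Wnt6* passed the low-count filter only through libraries taken before induction, so these values are given as a description. In NC cells *Wnt6* had a log2 fold change of -3.23 ± 0.70, and -2.42 without NC replicate 1, where the call was lost. In KD-Nap1l2 cells it had -4.04 ± 0.71, and -5.00 without KD-Nap1l2-7day replicate 2, where the call was lost. *Wnt5b*, the ligand nearest in sequence to *Wnt5a*, was at 137 and 122 counts in NC and 111 and 95 in NC-7day, and at 137 and 94 in KD-Nap1l2 and 59 and 60 in KD-Nap1l2-7day (adjusted p = 0.596 and adjusted p = 0.0523, and 0.0464 with DESeq2 for the second). *Wnt10b*, a ligand known to favour bone over fat, was at 42 and 54 counts in KD-Nap1l2 and 21 and 25 in KD-Nap1l2-7day (-1.04 ± 0.34, adjusted p = 0.0762). *Wnt2b*, *Wnt4* and *Wnt9a* ranged from 6 to 43 counts and were not called.

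Of the nuclear genes, *Tcf7*, which encodes the factor TCF1, was at 199 and 200 counts in NC, 51 and 102 in NC-7day, 292 and 260 in KD-Nap1l2, and 81 and 70 in KD-Nap1l2-7day. It fell 2.50-fold in NC cells (log2 fold change -1.32 ± 0.27, adjusted p = 0.0266) and 3.60-fold in KD-Nap1l2 cells (-1.85 ± 0.27, adjusted p = 0.00626). In NC cells the call was lost in 6 of 17 alternatives, which were the fit of only the libraries compared and the fits without either NC library, NC-7day replicate 1 or either KD-Nap1l2-7day library. In KD-Nap1l2 cells it was lost without either KD-Nap1l2-7day library. *Lef1*, its close relative, was at 68 and 80 counts in NC and 79 and 93 in NC-7day, and at 64 and 32 in KD-Nap1l2 and 67 and 62 in KD-Nap1l2-7day (adjusted p = 0.613 and adjusted p = 0.372). *Axin2*, the feedback target most often used as a readout of β-catenin activity, was at 29 and 31 counts in NC, 17 and 25 in NC-7day, 20 and 25 in KD-Nap1l2 and 21 and 7 in KD-Nap1l2-7day. It was not called in NC cells (-0.44 ± 0.48, adjusted p = 0.617) or KD-Nap1l2 cells (-0.67 ± 0.51, adjusted p = 0.400), and counts of this size leave wide errors.

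RefSeq promoter sequences (GRCm38.p6) were at hand for 31 members in 38 windows, among them 6 of the 13 members called in either kind of cell, with 7 windows. The 250 bases before each start were searched on both strands for the TCF/LEF letters CTTTGAA and CTTTGAT and for the core letters of a glucocorticoid receptor site, ACANNNTGT, since the pathway acts through TCF/LEF factors and the medium held dexamethasone. The GC box GGGCGG, the CCAAT box CCAAT and the TATA box TATAAA were searched too, and matches to these motifs may overlap. CTTTGAA was in 4.46%, CTTTGAT in 3.21% and ACANNNTGT in 5.84% of all 32851 windows, and each was in 0 of the 7 windows of called members. Among tested members, *Wnt5b* held CTTTGAT in 1 of its 3 windows and ACANNNTGT in another. GGGCGG was in 32.7% of all windows and in 28 of the 38 member windows, whose median GC content was 66.8% against 52.4%. CCAAT was in 33.8% of all windows and 10 member windows, and TATAAA in 12.4% and 7. The 4 windows below are of *Fzd4*, called in each analysis, of *Sfrp2*, with the steepest fall, of *Fzd1*, the most abundant called receptor with a window, and of *Wnt5b*, with the TCF/LEF letters. They are written 5′ to 3′ on the gene's strand, and capitals mark the motif matches on either strand.
Fzd4, chr7:89404116-89404365, plus strand: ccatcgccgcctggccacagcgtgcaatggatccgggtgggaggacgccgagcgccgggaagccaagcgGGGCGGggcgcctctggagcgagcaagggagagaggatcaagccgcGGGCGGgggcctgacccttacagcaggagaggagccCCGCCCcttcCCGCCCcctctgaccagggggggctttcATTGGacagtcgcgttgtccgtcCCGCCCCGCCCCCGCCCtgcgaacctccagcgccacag
Sfrp2, chr3:83766071-83766320, plus strand: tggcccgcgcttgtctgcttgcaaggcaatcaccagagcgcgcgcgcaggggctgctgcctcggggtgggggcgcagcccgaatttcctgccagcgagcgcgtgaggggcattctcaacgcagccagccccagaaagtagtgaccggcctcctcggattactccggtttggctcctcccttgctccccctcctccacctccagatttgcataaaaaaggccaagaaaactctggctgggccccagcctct
Fzd1, chr5:4758217-4758466, minus strand: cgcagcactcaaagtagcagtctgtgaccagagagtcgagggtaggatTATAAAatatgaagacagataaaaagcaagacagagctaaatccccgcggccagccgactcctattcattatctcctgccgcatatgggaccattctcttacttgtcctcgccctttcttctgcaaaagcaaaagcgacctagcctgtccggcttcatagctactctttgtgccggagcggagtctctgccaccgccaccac
Wnt5b, chr6:119449387-119449636, minus strand: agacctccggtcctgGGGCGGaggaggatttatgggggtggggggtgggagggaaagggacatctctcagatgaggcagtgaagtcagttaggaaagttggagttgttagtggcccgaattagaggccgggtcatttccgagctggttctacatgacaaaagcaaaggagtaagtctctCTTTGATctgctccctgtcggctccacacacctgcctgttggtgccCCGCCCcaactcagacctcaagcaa
The *Fzd4* window held 7 GGGCGG matches and 1 CCAAT match, the *Sfrp2* window held 0 matches of any of these motifs, and the *Fzd1* window held TATAAA starting 202 bases before the start. Letters that match or do not match in these windows say nothing about what binds there.

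The second comparison asked what the shRNA changed, and here 0 members were called, before induction or at day 7. Before induction edgeR called 0.0223% of all genes higher and 0.0594% lower. At an unadjusted p under 0.05, 3 members had higher levels with the label KD-Nap1l2 than with NC (*Fzd4*, *Fzd7* and *Sfrp2*), where 7.02% of all genes were, and 2 were lower (*Rspo1* and *Sfrp1*), where 6.73% were. DESeq2 called 3 members, with *Sfrp2* higher and *Rspo1* and *Sfrp1* lower, while it called 1.53% of genes higher and 2.11% lower. *Rspo1* entered these tests through the NC libraries alone. The libraries did not overlap for 6 higher and 7 lower members, against 22% and 21.2% of all genes, and the median over the tested members was -0.0023 against 0.011.

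The libraries of the 3 genes called by DESeq2 did not overlap. *Rspo1* was at 60 and 47 counts in NC and 4 and 3 in the libraries labelled KD-Nap1l2, with a log2 fold change of -3.82 ± 0.55 (adjusted p = 0.0646) and a ratio of summed counts of 14.5 (exact 95% counting interval 6.82 to 37.0). *Rspo1* passed the low-count filter through NC only, so that it had to differ here. Its fitted value, p-values, interval and calls are therefore given as a description. Outside the fits that left out a library, it was called with DESeq2, with no filter on low counts and with limma at both offsets. *Sfrp2* differed the other way, at 552 and 503 counts against 199 and 73 (2.01 ± 0.46, adjusted p = 0.134). The NC libraries of *Sfrp2* differed from each other by more than 2-fold, and leaving out NC replicate 1 gave 2.96 where leaving out NC replicate 2 gave 1.44. *Sfrp1* was lower (-0.90 ± 0.19, adjusted p = 0.115), and *Fzd4* higher (0.71 ± 0.16, adjusted p = 0.135). *Fzd7* was at 0.53 ± 0.23 (adjusted p = 0.362), with KD-Nap1l2 replicate 2 well above the other 3 libraries. Without KD-Nap1l2 replicate 1, edgeR called *Rspo1* and *Sfrp1* lower and *Fzd7* higher, and 4.28% of all genes. Without either NC-7day library it called *Rspo1*.

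**Figure D5:**
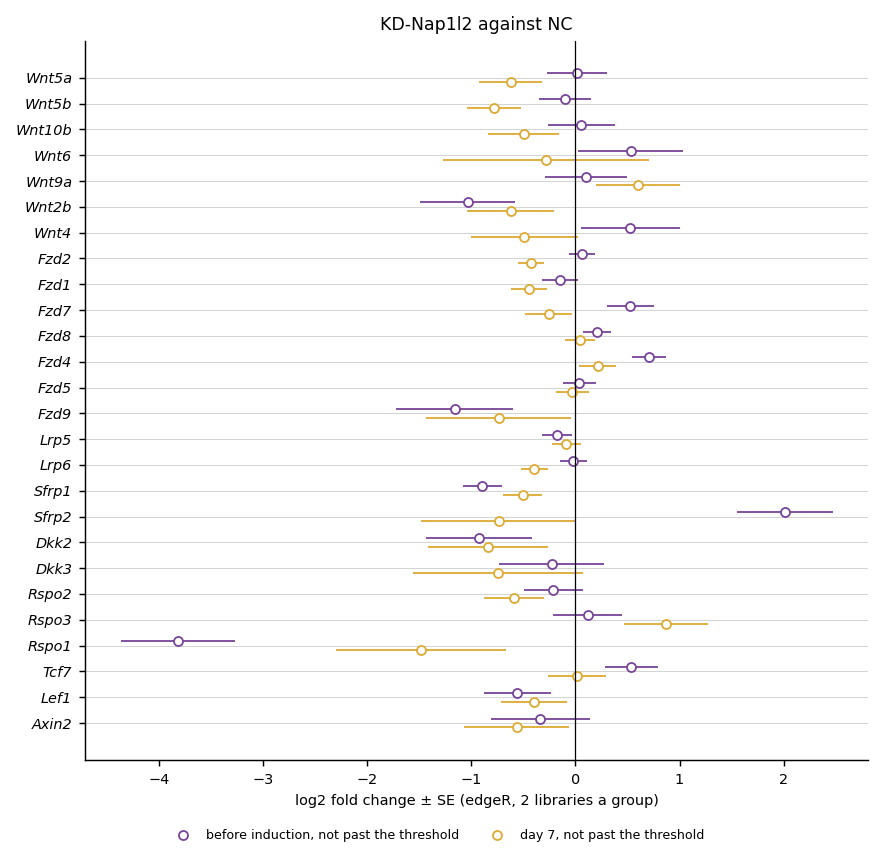
Log2 fold change ± SE of KD-Nap1l2 against NC for the 26 tested members, before induction (purple) and at day 7 (yellow), with open points because no adjusted p-value was under 0.05. *Rspo1* lies farthest left before induction at -3.82 and *Sfrp2* farthest right at 2.01.

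At day 7, 0 of the 26 members were called by edgeR and 0 by DESeq2, where edgeR called 0% of all genes and DESeq2 0.304% higher and 0.37% lower. At an unadjusted p under 0.05, 5 members were lower in the libraries labelled KD-Nap1l2-7day and 0 were higher, where 4.13% of all genes were lower and 3.72% higher. These were *Fzd1* (-0.45 ± 0.18), *Fzd2* (-0.43 ± 0.13), *Lrp6* (-0.39 ± 0.13), *Sfrp1* (-0.51 ± 0.19) and *Wnt5b* (-0.78 ± 0.26), with adjusted p-values from 0.517 to 0.582. Of the 26 estimates, 21 were below 0, and the libraries did not overlap for 13 lower and 3 higher members, against 21% of all genes in each direction. The median was -0.47, against -0.0056 over all genes. The 14 cell cycle genes were also all lower in estimate in this comparison, with a median of -0.32 and 0 called, and their part was not tested.

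The difference between the 2 induction responses was called for 0 of 26 members by edgeR, 0 by DESeq2 and 0% of all genes by edgeR, where DESeq2 called 0.523% of genes higher and 0.258% lower. At an unadjusted p under 0.05 it held *Sfrp2* (-2.75 ± 0.87, adjusted p = 0.610), *Fzd7* (-0.78 ± 0.32, adjusted p = 0.696) and *Fzd2* (-0.49 ± 0.18), each with the larger fall in KD-Nap1l2 cells, and 0 members in the other direction. Of all genes, 3.54% were below 0 and 3.5% above 0 at that p. With 2 libraries a group, an exact two-sided test of any single value cannot go below 0.333.

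Other genes of the pathway came from 6 lists of 63 gene symbols by role, of which 61 were found and 53 were tested. In NC cells 1 rose and 4 fell, where 4.83% of all genes rose and 3.38% fell. In KD-Nap1l2 cells 4 rose and 10 fell, where 6.84% of all genes rose and 7.36% fell. DESeq2 called 2 higher and 5 lower in NC cells, against 6.44% and 5.11% of all genes. In KD-Nap1l2 cells it called 6 higher and 11 lower, against 8.23% and 9.45%. The secretion enzyme gene *Porcn*, which encodes the acyltransferase that attaches the lipid to Wnts, rose 2.23-fold in NC cells (adjusted p = 0.0431) and 3.02-fold in KD-Nap1l2 cells (adjusted p = 0.0118). It was 1 of 2 tested secretion genes. Of 8 tested surface regulators, 0 were called in either. Of 12 tested non-canonical receptors and planar polarity genes, *Prickle2* fell in NC cells (1.38-fold, adjusted p = 0.0471) and in KD-Nap1l2 cells (1.67-fold, adjusted p = 0.00760). In KD-Nap1l2 cells *Vangl2*, a core planar polarity gene (1.97-fold, adjusted p = 0.0217), and *Ror2*, a receptor of Wnt5a (2.10-fold, adjusted p = 0.0320), also fell. *Ror2* was at 50 and 47 counts in NC, 60 and 68 in NC-7day, 125 and 152 in KD-Nap1l2, and 76 and 55 in KD-Nap1l2-7day, with the highest counts in KD-Nap1l2. Against NC before induction its log2 fold change was 1.59 ± 0.26, which DESeq2 called (adjusted p = 0.00162) and edgeR did not (adjusted p = 0.0775). Of 13 cytoplasmic genes, *Apc2* of the destruction complex and *Ctnnbip1*, an inhibitor of β-catenin, fell in KD-Nap1l2 cells (adjusted p = 0.0409 and adjusted p = 0.0337). Of 10 nuclear genes, *Tcf7l2*, a TCF factor, fell 1.64-fold in NC cells (adjusted p = 0.0348) and 2.03-fold in KD-Nap1l2 cells (adjusted p = 0.00837). The co-repressor gene *Tle2* fell and *Tle1* rose in KD-Nap1l2 cells. Of 10 tested β-catenin target genes, *Tnfrsf11b*, which encodes the decoy receptor osteoprotegerin, fell 2.95-fold in NC cells (adjusted p = 0.00845) and 2.35-fold in KD-Nap1l2 cells (adjusted p = 0.0133). *Bmp4*, a bone morphogenetic protein gene, fell 2.34-fold (adjusted p = 0.00850) and 2.08-fold (adjusted p = 0.0103). In KD-Nap1l2 cells *Wisp2* fell 2.44-fold (adjusted p = 0.0235), *Myc* rose 1.53-fold (adjusted p = 0.0455) and *Nkd2*, a feedback inhibitor, rose 2.23-fold (adjusted p = 0.0223), so that the list moved in both directions. These calls depended on which libraries were fitted. Over all genes, calls were also fewer in the fits named next, other than that without KD-Nap1l2 replicate 1, where they were more. All 5 calls in NC cells were lost without NC replicate 1, and all 14 in KD-Nap1l2 cells without either KD-Nap1l2-7day library. In NC cells *Porcn* and *Prickle2* were also lost without NC replicate 2, without either NC-7day library or without either KD-Nap1l2-7day library, and *Tcf7l2* in the same fits other than that without NC-7day replicate 2. In KD-Nap1l2 cells *Apc2*, *Ctnnbip1*, *Tle1*, *Tle2*, *Myc* and *Ror2* were also lost without either NC library. Without KD-Nap1l2 replicate 1 *Apc2*, *Ctnnbip1*, *Tle1*, *Tle2*, *Myc* and *Vangl2* were lost, and without replicate 2 *Apc2*, *Tle1*, *Myc*, *Ror2*, *Wisp2* and *Nkd2*. Adjusted p-values of lost calls ran from 0.0534 to 0.27 in NC cells and from 0.0514 to 0.277 in KD-Nap1l2 cells with edgeR. Over all alternatives, *Prickle2* in NC cells and *Myc* in KD-Nap1l2 cells each lost the call in 12 of 17, *Apc2* in 10, *Tcf7l2* in NC cells, *Ctnnbip1* and *Tle1* in 9, and *Porcn* in NC cells and *Tle2* in 7.

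In the comparisons of KD-Nap1l2 with NC, 0 of the 53 were called by edgeR. Before induction DESeq2 called 5, with *Ror2*, *Wisp2* and *Ccnd1* higher (adjusted p = 0.00162, 0.00410 and 0.0241) and *Nkd2* and *Lgr4* lower (adjusted p = 0.00240 and 0.0423) with the label KD-Nap1l2. Of all genes it called 1.53% higher and 2.11% lower. At an unadjusted p under 0.05, 5 were higher and 3 lower, where 7.02% and 6.73% of all genes were. At day 7 DESeq2 called 0, against 0.304% of all genes higher and 0.37% lower. At an unadjusted p under 0.05, 5 were then higher and 4 lower, where 3.72% and 4.13% of all genes were.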

How the data were processed

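Estimated counts and FPKM per gene and per transcript were deposited by the authors for 8 libraries in 4 groups of 2. The estimated counts, which need not be whole, carry no normalization (a non-whole count occurs in 41.1% of genes), and the authors' FPKM values divide them by gene length and library reads. That the expression columns are FPKM was read from their values. The submitters' processing notes name BWA, Bowtie2, RSEM and GRCm38.p6 without roles. Whether counting used strand, and the part of each tool, are not given in the sources used here. Tables of the authors' own comparisons (log2 fold changes, p-values and q-values) were not used.

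Counts were rounded, scaled by TMM and filtered by filterByExpr, and all 8 libraries were fitted as 4 group means with edgeR 4.0.16 in R 4.3.3. The quasi-likelihood test was adjusted by Benjamini-Hochberg over 13470 genes, and adjusted p-values under 0.05 were calls. Standard errors (SE) were derived from the log2 fold change and its F statistic. The test was run on simulated data with known changes first. Counting intervals and limits of 0 counts cover counting error only. Samples were grouped by their titles.

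Members called in any contrast were named with full statistics, members at a mean of at least 5 FPKM in a group with their levels, and those at an unadjusted p under 0.05 by name. Other pathway genes were given as counts, with the called ones named. The members, lists and tests were chosen with earlier results of these data known.

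Alternatives were DESeq2 1.42.0, RLE size factors, no low-count filter, a minimum of 10 counts per library, a fit of the compared groups alone, a replicate block, limma 3.58.1 on FPKM (log2, with offsets of 1 and 0.1), a required fold of 2, and the omission of each library in turn. Sequence searches used Python 3.11.15 and RefSeq tables for GRCm38.p6, which matched all 46 members by gene ID, and figures used matplotlib 3.10.9.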

Additional observations from a re-analysis of the deposited data

Results flagged for a closer look

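For 3 genes a contrast went in opposite directions in 2 settings, with CPM values of the libraries that did not overlap in either. Of all genes, 21% to 30.8% lacked overlap in each direction of a single one of these contrasts. The share of all genes with such opposite directions is not given here. *Fzd7* was higher in KD-Nap1l2 than in NC before induction and lower at day 7, and the test of this difference gave -0.78 on the log2 scale (adjusted p = 0.696 with edgeR). *Prickle2* was also higher in KD-Nap1l2 than in NC before induction and lower at day 7, although it fell on induction in both kinds of cells, and the difference was -0.28 (adjusted p = 0.766). *Ror2* was higher after induction in NC cells and lower in KD-Nap1l2 cells, with a difference of -1.54 (adjusted p = 0.442). None of the 3 differences passed the test.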

How the results depend on the processing

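Outside the fits that left out a library, 7 to 11 members were called lower after induction in NC cells and 10 to 14 in KD-Nap1l2 cells. In these fits 0 of the named fold changes turned direction. With each library left out, the count ran from 1 (without NC replicate 1) to 10 in NC cells, from 4 (without KD-Nap1l2-7day replicate 1) to 13 in KD-Nap1l2 cells, and from 0 to 3 (without KD-Nap1l2 replicate 1) for KD-Nap1l2 against NC. In each of the named fits without a library, the share of all genes called moved the same way as the member count. The shifts of the member counts between these fits are therefore not shown to be particular to the members. Such shifts do not compare the share of members called with that of all genes. For the other alternatives, shares of all genes are given here only for DESeq2 and the minimum of 10 counts. Before induction, members called for KD-Nap1l2 against NC numbered 3 with DESeq2, 1 with no filter on low counts and 1 with limma on log2(FPKM + 1) or log2(FPKM + 0.1). The cause was not tested. At day 7, and for the difference of the induction responses, each alternative called 0 members.

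The replicate numbers were not shown to pair the samples. Over 6 pairs of groups, the deviations of same-numbered libraries correlated at -0.061 to 0.104. With the replicate block, 10 members were called in NC cells and 10 in KD-Nap1l2 cells, without *Wnt5a* (adjusted p = 0.061) and *Dkk3* (adjusted p = 0.0569), and 0 in each other comparison. Of the other pathway genes, *Porcn* and *Prickle2* in NC cells and *Apc2*, *Tle2* and *Myc* in KD-Nap1l2 cells lost their calls (adjusted p = 0.0529 to 0.0643). RLE factors shifted the median of all genes by -0.0066 to 0.0022 on the log2 scale. Depth limits *Axin2*, *Dkk3*, *Rspo1*, *Wnt6*, the day 7 level of *Sfrp2* and the 20 members that were not tested.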
